A study of Mus musculus with 3 samples.

Results

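The genes described here were 7 CC chemokines and 2 chemokine receptors, Ccl2, Ccl7, Ccl8, Ccl12, Ccl6, Ccl9, Ccl24, Ccr2 and Cx3cr1. They were chosen by symbol from the gene list of the count tables, and all 9 were found among the 55401 genes listed. The study profiled single immune cells from tumours of the mouse melanoma line YUMM1.7 grown in mice aged 4, 12 and 20 months. Per the labels' protocols, 500000 tumour cells were placed under the skin, tumours were taken after 18 days, and live cells bearing the leukocyte protein CD45 were sorted by flow cytometry. All 3 groups carried the same graft, 7 mice of each age were used, and no tumour-free mice, other treatment or genotype is named. Each age had a single library, and pooling of the mice is not described, so age cannot be told apart from mouse, tumour or library and no test between ages was possible.

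Chemokines are small secreted proteins that direct the movement of white blood cells. In mice, Ccl2, Ccl7 and Ccl12 bind the receptor CCR2, through which inflammatory monocytes leave the bone marrow and enter tissue, and Ccl8 belongs to the same monocyte chemoattractant family. Ccl6 and Ccl9 are myeloid chemokines related to ligands of CCR1, and Ccl24 (eotaxin-2) binds CCR3, best known on eosinophils. Cx3cr1 encodes the receptor for the membrane-bound chemokine fractalkine and is high in patrolling monocytes and in many resident macrophages. In tumours, monocytes drawn by CCR2 ligands are a source of tumour macrophages.

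The labels give the cell type as melanoma, but the sorted cells were leukocytes by their transcripts. Ptprc, which encodes CD45, was counted in 95.3%, 94.1% and 94.1% of retained cells at 4, 12 and 20 months, and 8 pigment-cell markers together reached 19.8, 18.2 and 21.95 counts per 1000000 counts (CPM), with none at 0. The libraries held 14393, 14653 and 14684 cells with 110371225, 127850782 and 119873564 counts, and 13528, 13774 and 13803 cells were retained. Between 2 and 4 barcodes were shared by any pair of libraries. Monocyte/macrophage-like cells numbered 5266, 4211 and 5119, T-like cells 4179, 4937 and 4247, and NK-like cells 2273, 2099 and 1610. A cluster of 1379 T-like cells came almost wholly from the 12-month library (1343 cells). Classes are called "-like" because they were named from marker genes, none of which was among the 9 genes described, and these 9 were also left out of the clustering.

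Monocyte/macrophage-like cells were divided into 6 sub-clusters. The sub-cluster led by F13a1 and Hp (1191, 603 and 645 cells at 4, 12 and 20 months) and the one led by AA467197 and Tgm2 (1149, 586 and 740 cells) were named classical monocyte-like. Another, led by Pf4 and Ccl8 and carrying complement C1q transcripts, was named C1q macrophage-like and held 341, 450 and 956 cells, or 6.48%, 10.7% and 18.7% of the class. A sub-cluster led by Mmp12 and Cd36 was named nonclassical monocyte-like and held 121, 54 and 41 cells. The other 2, led by H2-Ab1 and H2-Eb1 (1534, 1270 and 1867 cells) and by Cxcl2 and Il1b (930, 1248 and 870 cells), stayed unnamed and are called by those genes.

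The genes fall into few chromosomal neighbourhoods of GRCm38. Ccl2 (chr11:82035571-82037453), Ccl7 (chr11:82045712-82047525), Ccl12 (chr11:82101845-82103400) and Ccl8 (chr11:82115185-82116799) lay on the plus strand within 81229 bp. Ccl9 (chr11:83572919-83578636) and Ccl6 (chr11:83587882-83593087) lay on the minus strand within 20169 bp, 1456119 bp from the first group. Ccl24 (chr5:135569937-135573049, minus strand) stood alone, while Ccr2 (chr9:124101950-124113557, plus strand) and Cx3cr1 (chr9:119901616-120069879, minus strand) shared chromosome 9. The Cx3cr1 gene model spans 168264 bp and overlaps 9 other gene models, and its exons touch those of the antisense gene Gm33858. Whether the counting used strand is not given in the sources used here, so Cx3cr1 counts may include reads of such neighbours. No 31-base stretch of the Ccl2, Ccl7, Ccl8 or Ccl12 transcripts recurred in another gene, whereas 3.75% of those of Ccl9, 3.41% of Ccr2, 1.75% of Cx3cr1, 1.02% of Ccl6 and 0.0775% of Ccl24 did.

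The bases before the transcription start are shown for 2 pairs of neighbours that were highest in the same monocyte/macrophage-like sub-cluster in each library, Ccl8 with Ccl12 in C1q macrophage-like cells and Ccl6 with Ccl9 in F13a1/Hp cells. Each run is the 250 bases before the RefSeq start on GRCm38.p6, written 5′ to 3′ on the gene's own strand, and capitals mark the TATA box letters TATAAA on either strand.
Ccl8 (chr11:82114935-82115184): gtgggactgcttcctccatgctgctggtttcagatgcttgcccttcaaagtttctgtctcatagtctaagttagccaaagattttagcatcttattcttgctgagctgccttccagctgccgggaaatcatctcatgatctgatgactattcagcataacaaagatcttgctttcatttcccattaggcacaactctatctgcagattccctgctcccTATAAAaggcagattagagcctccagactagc
Ccl12 (chr11:82101595-82101844): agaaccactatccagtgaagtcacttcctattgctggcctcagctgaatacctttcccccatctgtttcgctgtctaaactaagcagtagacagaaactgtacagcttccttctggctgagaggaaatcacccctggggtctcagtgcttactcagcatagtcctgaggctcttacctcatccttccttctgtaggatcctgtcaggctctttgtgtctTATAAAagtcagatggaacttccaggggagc
Ccl6 (chr11:83593088-83593337): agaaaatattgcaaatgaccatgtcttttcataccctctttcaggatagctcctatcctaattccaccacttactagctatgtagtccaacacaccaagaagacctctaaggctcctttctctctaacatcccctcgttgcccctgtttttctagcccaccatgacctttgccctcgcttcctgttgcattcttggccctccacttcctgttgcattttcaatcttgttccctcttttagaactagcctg
Ccl9 (chr11:83578637-83578886): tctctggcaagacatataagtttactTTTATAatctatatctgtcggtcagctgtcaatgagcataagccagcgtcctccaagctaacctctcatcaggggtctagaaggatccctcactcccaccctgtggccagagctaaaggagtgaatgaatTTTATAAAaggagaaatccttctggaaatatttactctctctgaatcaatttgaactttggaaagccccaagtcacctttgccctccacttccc
The letters TATAAA began 32 bases before the start in Ccl8 and 31 bases before it in Ccl12, farther upstream in Ccl9, and were not in the Ccl6 window. They occur in 12.4% of 32851 promoters of this length. The interferon-linked motifs searched on both strands, GAS (TTCNNNGAA, in 7.02% of promoters) and ISRE (GAAA, any 2 bases, GAAA, in 2.98%), were in none of the 6 windows held for the 9 genes, which also include Ccr2 and Cx3cr1. In global alignments that allowed gaps, 129 bases of Ccl8 and Ccl12 were identical, or 51.6% of 250, the highest of the pairs compared. The other pairs ranged from 37.2% (Ccl6 with Ccl9) to 48.8% (Ccl12 with Ccl6). Ccl6 and Ccl9 shared the longest run of identical bases, gccctccacttcc, of 13 bases. A match of letters is a description of the window only.

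Levels below are CPM of the summed counts of a class in 1 library, given in the order 4, 12 and 20 months, with exact Poisson intervals at 95% where an interval is printed. These intervals cover counting error only, and levels are compared within a gene, not between genes.

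Ccl2, the chemokine most closely tied to CCR2, was highest in the F13a1/Hp cells among the 6 monocyte/macrophage-like sub-clusters and was lower with age there. Its level in F13a1/Hp cells was 1620, 1163 and 898 CPM. In AA467197/Tgm2 cells it was 1142, 828 and 635 CPM, and in C1q macrophage-like cells 953, 775 and 644 CPM. The order of these 3 sub-clusters held in the younger libraries, and at 20 months the intervals of the latter pair overlapped (614 to 656 and 629 to 660 CPM). The Cxcl2/Il1b cells had 717, 702 and 559 CPM and the H2-Ab1/H2-Eb1 cells 427, 322 and 314 CPM. The lowest values were those of the Mmp12/Cd36 cells, at 300, 306 and 110 CPM, the last from 32 counts.

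Ccl7 lies next to Ccl2 but had another distribution. C1q macrophage-like cells held 762, 853 and 638 CPM, above every other sub-cluster in each library. At 4 months the AA467197/Tgm2 cells followed with 277 CPM, but their values at 12 and 20 months were 144 and 97.4 CPM. The Cxcl2/Il1b cells had 230, 221 and 190 CPM. F13a1/Hp cells, where Ccl2 was highest, had 142, 115 and 93.9 CPM of Ccl7.

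Ccl8 was highest in C1q macrophage-like cells, which held most of its counts. The C1q macrophage-like cells had 145 CPM (interval 133 to 159) at 4 months, 205 (193 to 217) at 12 months and 97.5 (91.6 to 104) at 20 months. The 3 intervals did not overlap, but they leave out the spread between cells and do not set the ages apart. In the classical monocyte-like cells the level was 1.77, 5.66 and 2.99 CPM, close to the T-like level of 1.35, 3.19 and 3.15 CPM. C1q macrophage-like cells made up 2.52%, 3.27% and 6.93% of retained cells and held 71.0%, 69.4% and 72.2% of all Ccl8 counts. The Cxcl2/Il1b cells held 4.96%, 7.21% and 7.61% of them, and the H2-Ab1/H2-Eb1 cells 6.92%, 5.04% and 6.03%. Of the 137, 260 and 303 monocyte/macrophage-like cells with a Ccl8 count, 57, 89 and 165 were C1q macrophage-like. The counts lay in few cells. The 10 cells with most Ccl8 held 48.2%, 51.8% and 35.0% of its counts in monocyte/macrophage-like cells. In the 12-month library 1 cell had 366 of 1336 counts. That cell was C1q macrophage-like, a class with 1088 Ccl8 counts in that library.

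Ccl12, a mouse CCR2 ligand with no human counterpart of the same name, was also highest in C1q macrophage-like cells, at 1492, 1444 and 1265 CPM. The Cxcl2/Il1b cells followed with 829, 728 and 716 CPM, and the H2-Ab1/H2-Eb1 cells had 743, 675 and 716 CPM. At 20 months these 2 did not differ beyond counting error (699 to 735 and 703 to 729 CPM). F13a1/Hp cells were near the bottom of the order, at 203, 169 and 209 CPM.

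Ccl6 and Ccl9 marked the other end of the class. Ccl6 reached 1162, 1187 and 1118 CPM in F13a1/Hp cells, and Ccl9 reached 647, 681 and 723 CPM there, above every other sub-cluster in each library. The Mmp12/Cd36 cells were second for Ccl6, at 454, 707 and 662 CPM. In C1q macrophage-like cells Ccl6 was 259, 252 and 258 CPM and Ccl9 was 198, 224 and 247 CPM. Ccl9 was lowest in H2-Ab1/H2-Eb1 cells, at 99.7, 138 and 175 CPM.

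Ccl24 was rare, with 68, 54 and 40 counts in all monocyte/macrophage-like cells (1.58, 1.34 and 0.873 CPM). At 4 months 41 of these counts lay in AA467197/Tgm2 cells (4.94 CPM), against 11 and 5 there at 12 and 20 months. The Mmp12/Cd36 cells of the 12-month library had 12 counts in 54 cells, or 25.9 CPM (13.4 to 45.2), and those of the 20-month library had 0. C1q macrophage-like cells had 0, 1 and 0 counts. At this depth no comparison between ages was made for Ccl24, which was under the minimum mean level of 10 CPM.

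**Figure D1:**
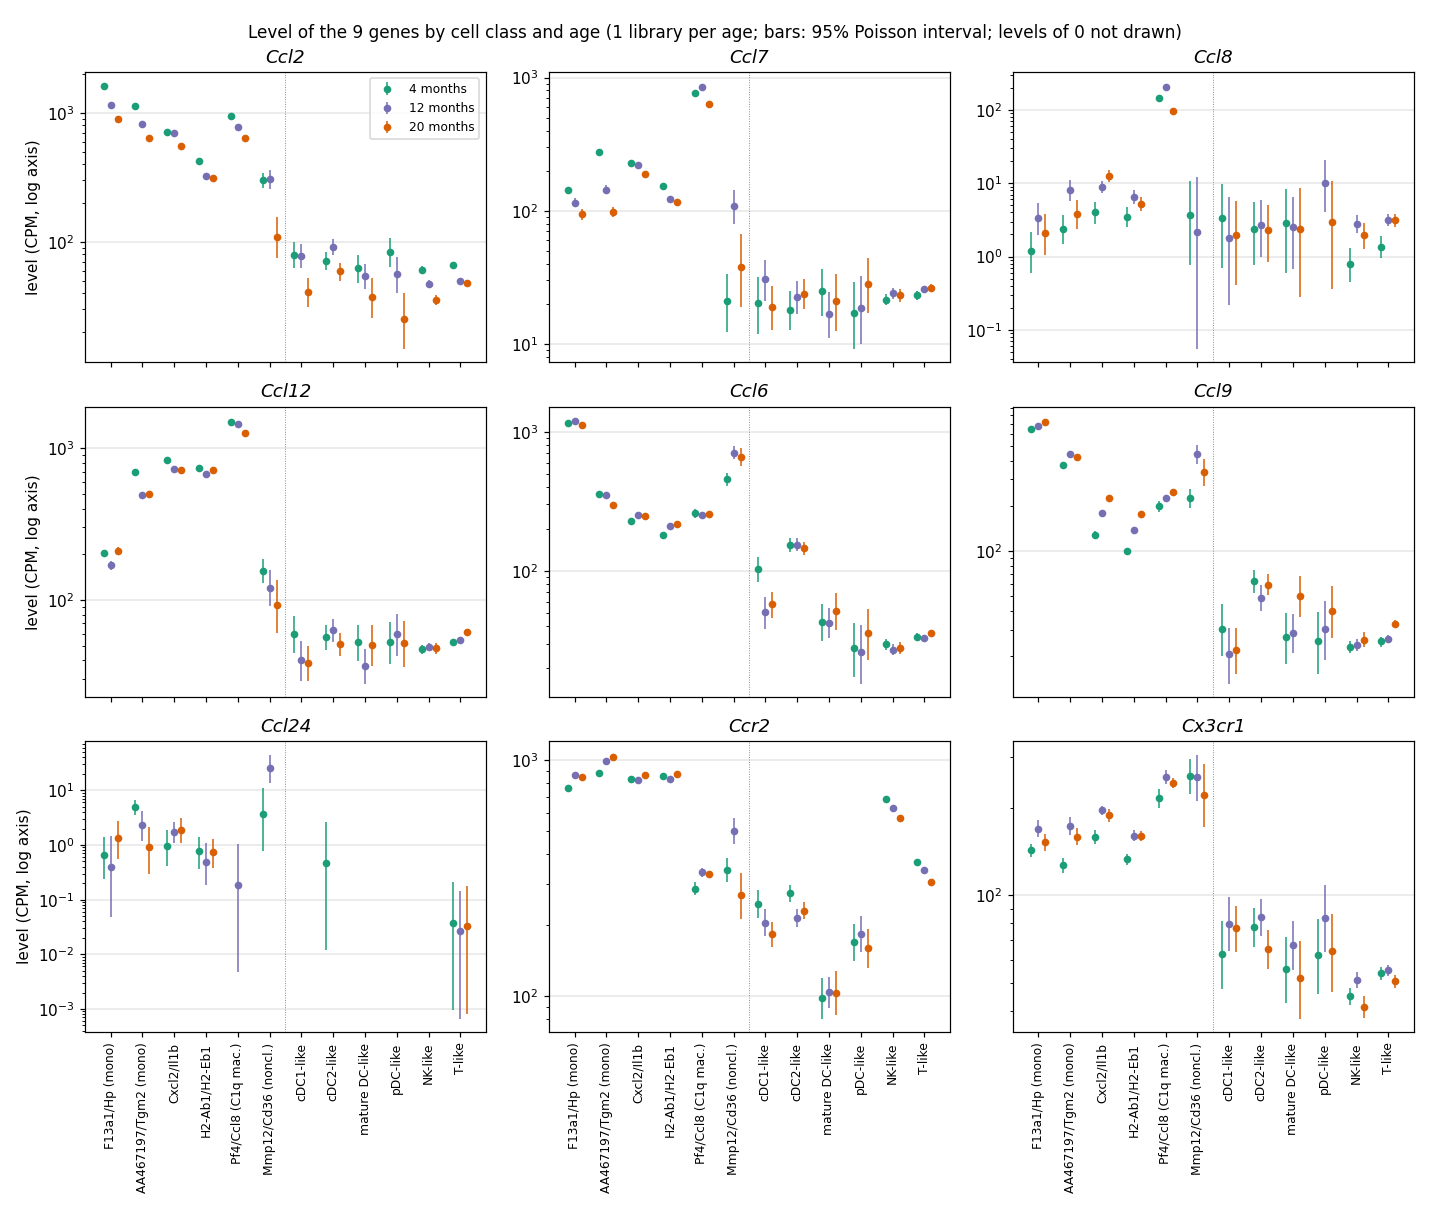
Level of each of the 9 genes (CPM, log axis) in 6 monocyte/macrophage-like sub-clusters (left of the dotted line) and in dendritic, NK-like and T-like cells; points are the 3 libraries by age and bars are 95% Poisson intervals. Ccl8 stands out in C1q macrophage-like cells (145, 205 and 97.5 CPM), Ccl6 in F13a1/Hp cells (1162, 1187 and 1118 CPM), and Ccr2 in NK-like cells (684, 629 and 569 CPM) lies below its level in classical monocyte-like cells (820, 928 and 943 CPM).

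Ccr2 was broad among monocyte/macrophage-like cells and low in 2 of their sub-clusters. The AA467197/Tgm2 cells had 880, 992 and 1033 CPM, and the F13a1/Hp, H2-Ab1/H2-Eb1 and Cxcl2/Il1b cells lay between 766 and 874 CPM in all 3 libraries. C1q macrophage-like cells had 286, 334 and 329 CPM and Mmp12/Cd36 cells 342, 502 and 267 CPM. The order of these last 2 was not the same in every library.

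Cx3cr1 had the reverse order at the top. Mmp12/Cd36 cells, named for nonclassical monocyte markers, had 258, 256 and 223 CPM and C1q macrophage-like cells had 217, 256 and 245 CPM, with overlapping intervals at 12 months (212 to 307 and 243 to 270) and 20 months (172 to 284 and 236 to 255). The remaining 4 sub-clusters ranged from 127 to 197 CPM. All were above the T-like level of 53.8, 55.1 and 50.4 CPM.

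The C1q macrophage-like cells were next set against the classical monocyte-like cells (F13a1/Hp and AA467197/Tgm2 together) within each library. Since clusters were made from these cells, the values are a description with no test. Of the 8 genes above 10 CPM, 3 were at least 2-fold higher in C1q macrophage-like cells in all 3 libraries, as were 5.41% of 8648 genes. They were Ccl7 (3.70-, 6.59- and 6.66-fold), Ccl8 (82.0-, 36.2- and 32.7-fold) and Ccl12 (3.43-, 4.42- and 3.51-fold). The high Ccl8 repeats the label of this sub-cluster, which Ccl8 was one of the genes leading, although Ccl8 was left out of the clustering. Another 3 were at least 2-fold lower in all 3 libraries, as were 7.74% of genes. They were Ccl6 (3.01-, 3.10- and 2.68-fold), Ccl9 (2.61-, 2.53- and 2.30-fold) and Ccr2 (2.87-, 2.78- and 2.87-fold). Ccl2 (log2 ratio -0.55, -0.37 and -0.24) and Cx3cr1 (0.68, 0.58 and 0.65) were past 2-fold in neither direction, and the sign of Ccl2 turned without doublet removal (0.31, 0.34 and 0.16) and at clustering resolution 0.5 (0.39, 0.37 and 0.64). The median log2 ratio of the 8 genes was 0.07, 0.10 and 0.20, against 0.11, 0.07 and 0.06 over all genes tested. The calls for Ccl6 and Ccl9 were lost when only cells of at least 5000 counts were kept and clustered anew. Their ratios were then between -0.25 and -0.97, and only Ccr2 was past 2-fold lower. In that setting a cluster of 2355 cells led by F13a1, S100a8 and Hp was named neutrophil-like and was outside the classes compared. Both calls were also lost at resolution 0.5 (Ccl6 -0.15, -0.36 and 0.13, Ccl9 -0.73, -0.92 and -0.55). There a cluster led by F13a1 and Hp stayed unnamed and was also outside. The part of these changes of class in the ratios was not tested.

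The libraries also differed in where the counts of each gene lay. C1q macrophage-like cells held 21.6%, 36.3% and 51.4% of all Ccl7 counts of a library and 15.05%, 23.7% and 34.3% of all Ccl12 counts. F13a1/Hp cells, which were 8.80%, 4.38% and 4.67% of retained cells, held 48.8%, 32.6% and 31.2% of Ccl6 counts and 34.2%, 18.5% and 16.8% of Ccl2 counts. Ccr2 was the gene with most counts outside the monocyte/macrophage-like class: NK-like cells held 21.7%, 19.5% and 13.1% of them, and T-like cells with the unnamed Dapl1/Gzmm cluster 18.2%, 25.01% and 21.2%.

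**Figure D2:**
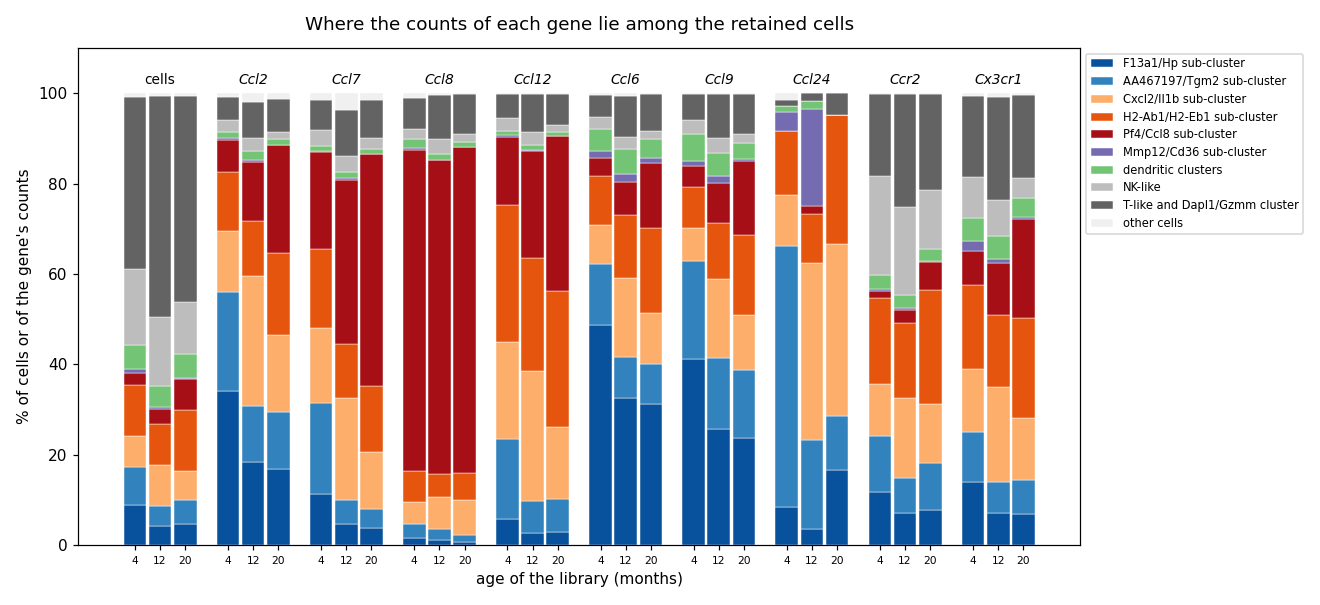
Share of retained cells (first 3 bars) and of each gene's counts (remaining bars) held by each group of cells, in percent, at 4, 12 and 20 months. The Pf4/Ccl8 sub-cluster (C1q macrophage-like) grows from 2.52% to 6.93% of cells and holds 51.4% of Ccl7 counts at 20 months, and the grey NK-like and T-like parts are wider for Ccr2 and Cx3cr1 than for the chemokines.

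Over the whole monocyte/macrophage-like class, Ccl2 was 914 CPM (905 to 923) at 4 months, 666 (658 to 674) at 12 months and 537 (530 to 544) at 20 months. Relative to the youngest library the log2 ratio was -0.46 at 12 and -0.77 at 20 months, the latter past 1.5-fold. Ccl8 went the other way, with 13.6, 33.1 and 26.8 CPM and log2 ratios of 1.28 and 0.97. Of the 8 genes above 10 CPM, Ccl8 alone was at least 1.5-fold higher at 12 months, where 2.56% of 8589 genes were, and at 20 months, where 1.92% were. None was 1.5-fold lower at 12 months (1.11% of all genes), and Ccl2 alone was at 20 months (1.69%). The other 6 stayed within 1.5-fold at both ages. Ccl7 had 233, 251 and 242 CPM, Ccl12 680, 703 and 752, Ccl6 444, 372 and 347, Ccl9 285, 269 and 294, Ccr2 784, 785 and 762, and Cx3cr1 148, 189 and 184. The median log2 ratio of the 8 genes was 0.02 at 12 months and 0.05 at 20 months, against 0.01 and -0.00 over all genes tested.

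The same ratios within sub-clusters gave another picture for several genes. Ccl2 was below its 4-month level in 6 of 6 sub-clusters at 20 months, from -1.45 in the few Mmp12/Cd36 cells, where 16.4% of all genes were past 1.5-fold lower, to -0.36 in Cxcl2/Il1b cells (1.45%), with every counting interval below 0. Ccl7, nearly level over the class, was below its 4-month level at 20 months in 5 of 6 sub-clusters, down to -1.51 in AA467197/Tgm2 cells, and its interval lay below 0 in each of these 5. Ccl12 was likewise below in 5 of 6 at 20 months. Ccl9 was above its 4-month level in 6 of 6 sub-clusters at 12 and at 20 months, with every interval above 0. Its ratio at 20 months was 0.81 in H2-Ab1/H2-Eb1 cells, 0.80 in Cxcl2/Il1b cells and 0.16 in F13a1/Hp cells. Ccr2 and Cx3cr1 were each above the 4-month level in 5 of 6 sub-clusters at 20 months, by no more than 0.23 and 0.33.

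Ccl8 differed most between the class and its main source. Within C1q macrophage-like cells its log2 ratio was 0.49 at 12 months (0.07 as a mean over cells) and -0.58 at 20 months. The share of these cells in the class went from 6.48% to 18.7%. Ccl8 was above its 4-month level in 5 of 6 sub-clusters at 12 months. At 20 months it was above in 4 of the 5 with a ratio, with 2 intervals above 0 and 1 below. The ratios were 1.14 and 1.65 in Cxcl2/Il1b cells and 0.90 and 0.58 in H2-Ab1/H2-Eb1 cells, where its mean level was under 10 CPM. In an alternative chosen after seeing the data, each sub-cluster was given its share of counts at 4 months in all libraries. The class ratio of Ccl8 at 20 months was then -0.12 in place of 0.97. At 12 months the class ratio of Ccl8 was 0.66 in place of 1.28, still past 1.5-fold. The ratio of Ccl7 at 20 months became -0.54 in place of 0.05, and that of Ccl9 0.33 in place of 0.04. Ccl2 kept a ratio of -0.68 against -0.77. In C1q macrophage-like cells no gene was past 1.5-fold at either age (4.03% of 8760 genes were higher and 1.75% lower at 12 months, 2.79% and 2.01% at 20 months). Some alternatives lay just past it: Ccl8 at 20 months was -0.61 without doublet removal, with the T-like level subtracted or as a mean over cells, Ccl2 at 20 months was -0.60 in cells of at least 5000 counts, and Ccr2 at 12 months was 0.64 with each library clustered separately. Without the 10 cells highest in each gene and library, the 20-month ratios there were -0.11 for Ccl8 and -0.28 for Ccl2, the latter against -0.56. These 10 cells held 59.1% of Ccl8 and 29.0% of Ccl2 counts of the 341 cells at 4 months but 42.7% and 10.7% of those of the 956 cells at 20 months, so that unequal parts were removed.

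In classical monocyte-like cells the 3 CCR2 ligands were lower at 12 and 20 months than at 4 months, 2 of them past 1.5-fold. Ccl2 was 1393, 1001 and 762 CPM, with log2 ratios of -0.48 and -0.87, and Ccl7 was 206, 129 and 95.7 CPM, with ratios of -0.67 and -1.11. Ccl12 had ratios of -0.41 (-0.47 to -0.35) and -0.27 (-0.33 to -0.22), and its sign turned when each library was clustered separately (0.32 and 0.33). Ccl7 was thus past 1.5-fold lower at 12 months (0.858% of 8279 genes were) and both at 20 months (1.00%), and no gene of the 7 above 10 CPM was past 1.5-fold higher (2.87% and 1.96%). Without doublet removal, which left a class of 619, 378 and 363 cells in place of 2340, 1189 and 1385, the 20-month ratios were -0.31 for Ccl2 and -0.23 for Ccl7, within 1.5-fold. Ccr2 in the same cells was 820, 928 and 943 CPM and Ccl9 518, 567 and 569 CPM. The log2 ratios of Ccl9, 0.13 and 0.14, also changed sign when each library was clustered separately (-0.15 and -0.19).

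**Figure D3:**
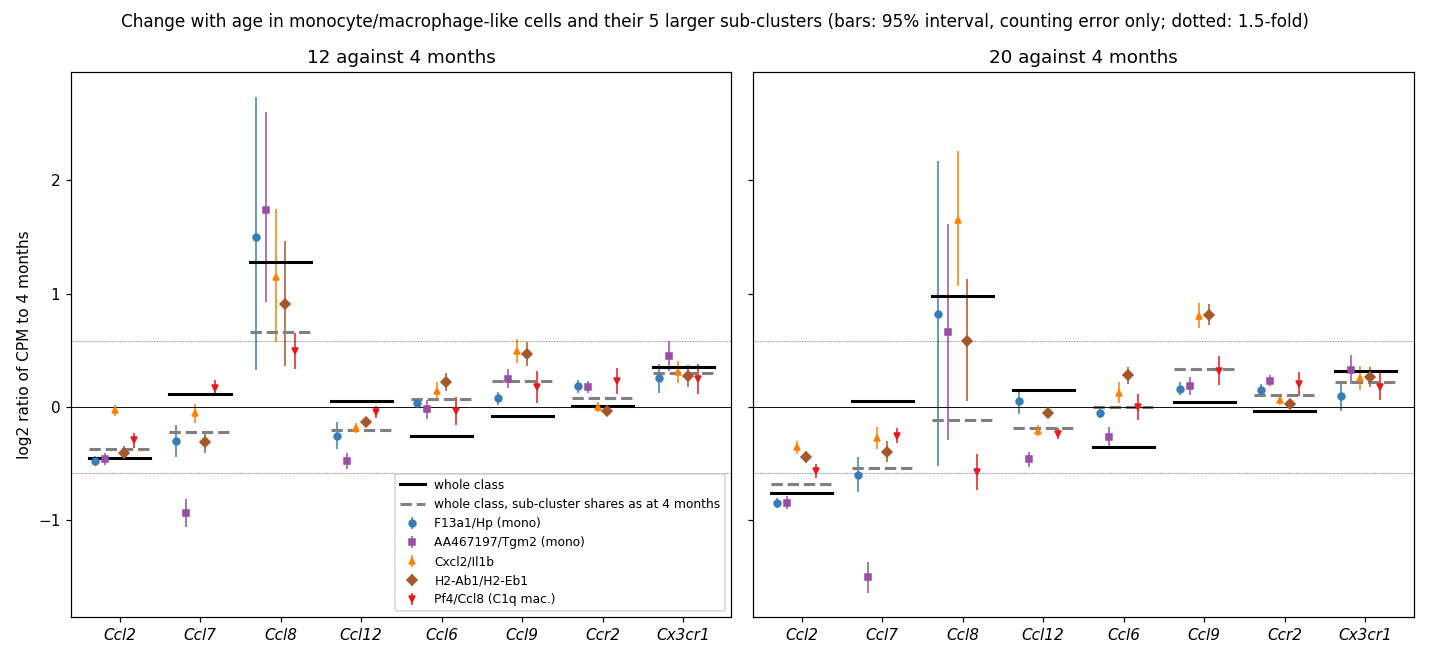
Log2 ratio of CPM to the 4-month library at 12 months (left) and 20 months (right) for 8 genes; symbols are the 5 larger sub-clusters with 95% counting intervals, black bars the whole monocyte/macrophage-like class and dashed grey bars the class with sub-cluster shares held as at 4 months. At 20 months Ccl2 lies below 0 throughout, Ccl7 is near 0 for the class (0.05) but below 0 in the sub-clusters drawn, and Ccl9 lies above 0 in all of them.

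Shares of cells with a count were taken after thinning every cell to 3500 counts, which left out no cell. Ccl2 was counted in 60.8%, 55.7% and 50.01% of monocyte/macrophage-like cells, and in 76.0%, 73.0% and 66.7% without thinning. In T-like cells, set beside them, the thinned shares were 19.7%, 15.9% and 13.7%. Their median depths before thinning were 5128, 6010 and 5742 counts against 7674, 8680 and 7950. Ccr2 was counted in 82.2%, 83.6% and 80.02% of monocyte/macrophage-like cells and Cx3cr1 in 37.9%, 44.1% and 43.4%. Ccl7 was counted in 52.5%, 59.1% and 50.3% of C1q macrophage-like cells but in 18.9%, 16.3% and 14.6% of classical monocyte-like cells. For Ccl8 the shares were 14.1%, 14.2% and 10.7% against 0.641%, 1.01% and 0.866%, the latter within the range of T-like cells (0.431%, 1.13% and 0.824%).

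**Figure D4:**
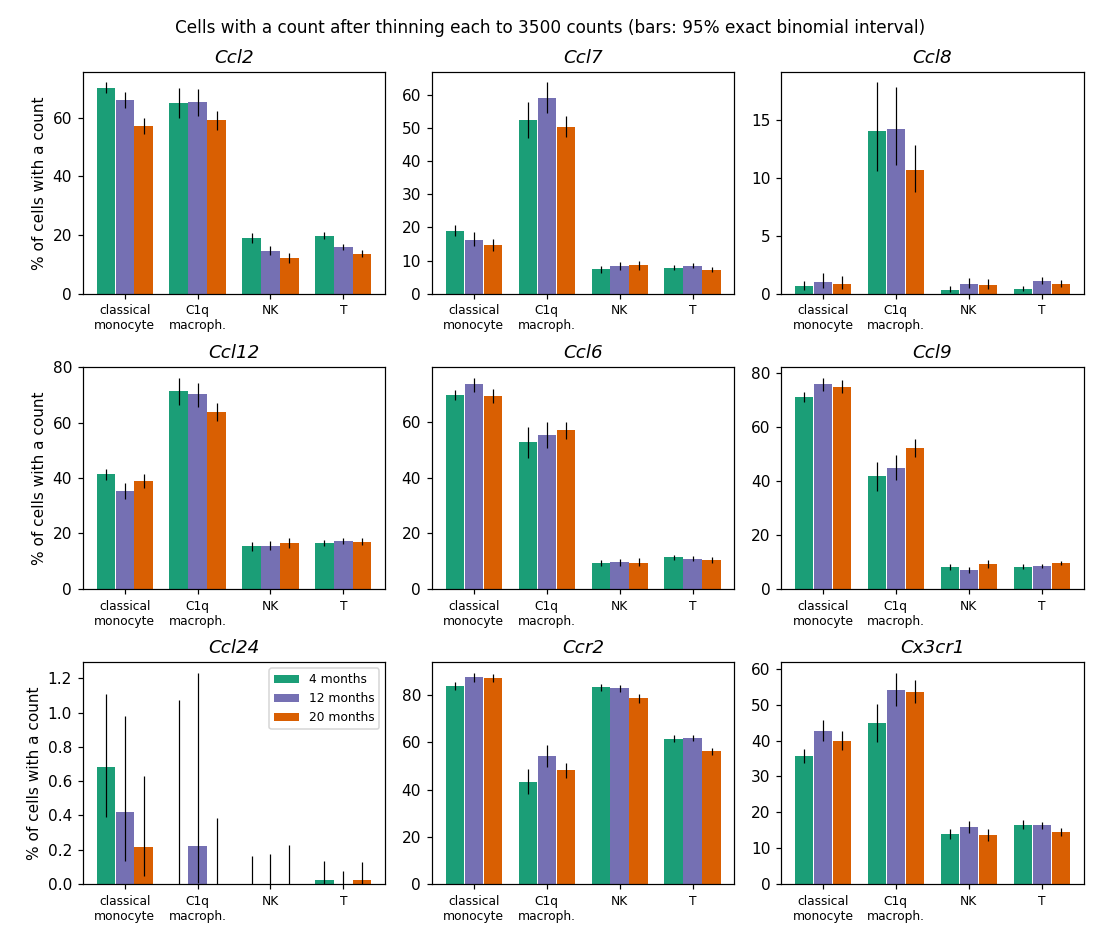
Percent of cells with at least 1 count of each gene after thinning to 3500 counts, in 4 classes and 3 ages; error bars are exact 95% binomial intervals (Clopper-Pearson). The vertical scale differs between panels: Ccl24 stays under 1% of cells, and for Ccr2 the intervals of NK-like cells (83.4%, 82.9% and 78.6%) and classical monocyte-like cells (84.0%, 87.7% and 87.3%) overlap at 4 months, with NK-like cells lower at 12 and 20 months.

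Some pairs of the genes shared cells more often, or less often, than the product of their shares in the monocyte/macrophage-like class. Cells with both Ccl7 and Ccl8 were 2.50, 2.24 and 2.24 times as frequent as the product of their shares. The ratio was 1.28, 1.32 and 1.39 for Ccl2 with Ccl7 and 1.22, 1.15 and 1.13 for Ccl6 with Ccl9. Ccl8 and Ccr2 shared cells less often than their product, at 0.65, 0.79 and 0.66. Ccr2 and Cx3cr1 were close to it, at 1.00, 1.00 and 0.99. Within C1q macrophage-like cells alone Ccl7 with Ccl8 was nearer 1, at 1.47, 1.40 and 1.44. Ccl8 with Ccr2 gave 0.53, 0.84 and 0.69 there, farther from 1 than in the class at 4 months and slightly nearer at 12 and 20 months.

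**Figure D5:**
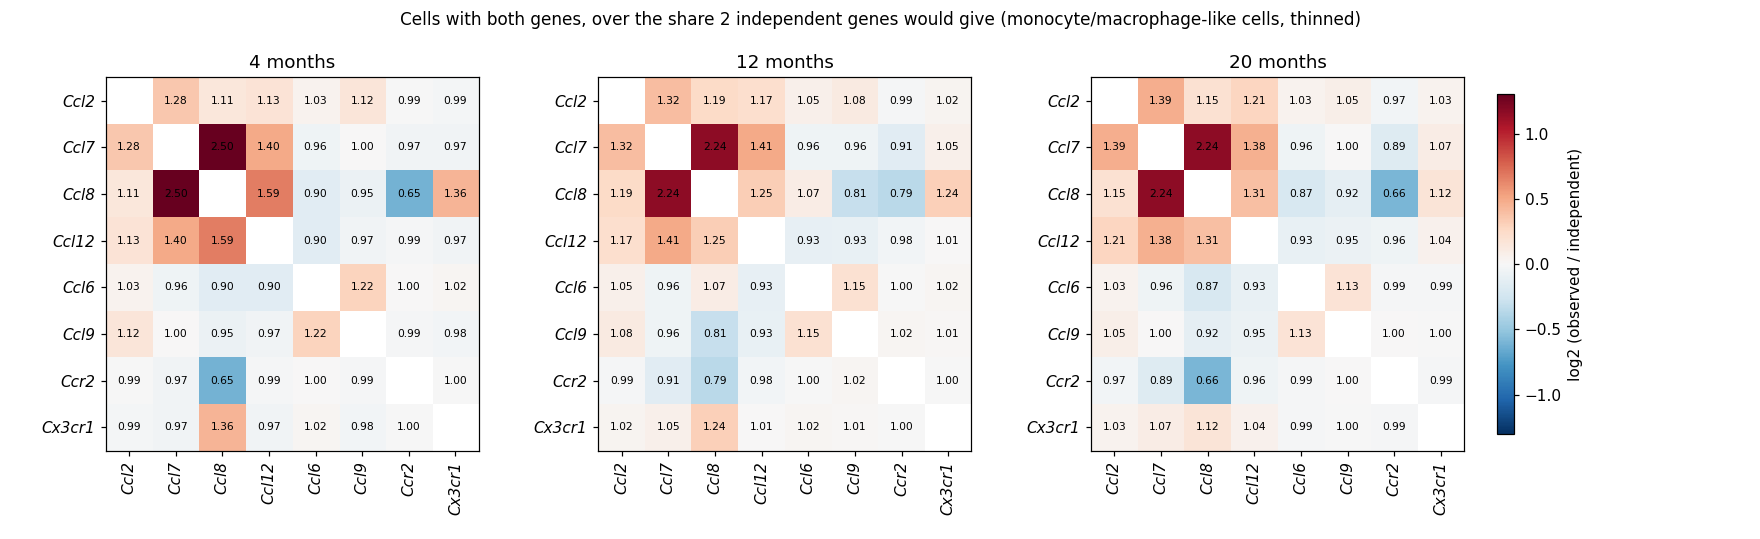
Cells with a count of both genes of a pair, divided by the product of the 2 genes' shares, in monocyte/macrophage-like cells of each library after thinning; colour is the log2 of this ratio and the printed number is the ratio. Ccl24, with few cells, is not drawn; of the 8 genes drawn, Ccl7 with Ccl8 is the reddest pair (2.50, 2.24 and 2.24) and Ccl8 with Ccr2 the bluest (0.65, 0.79 and 0.66).

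Lymphocytes carried chemokine levels that were a small share of the level over all retained cells, and this share varied between libraries. In T-like cells Ccl2 was 66.7, 49.99 and 48.5 CPM, which was 15.7%, 18.8% and 19.4% of the level over all retained cells. In NK-like cells it was 14.4%, 17.8% and 14.2% of that level, and in the unnamed Dapl1/Gzmm cluster 14.7%, 16.8% and 14.3%. Ccl7, Ccl12, Ccl6 and Ccl9 in these 3 classes lay between 13.9% and 24.4% of the library level. The shares were alike across these cell types, and whether they are background counts or expression was not tested.

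Ccr2 in NK-like and T-like cells was above this range of shares. NK-like cells had 684, 629 and 569 CPM, 118%, 124% and 113% of the library level. T-like cells had 370, 343 and 304 CPM, 63.8%, 67.4% and 60.7% of it, and their sub-clusters differed widely. The sub-cluster led by Tnfrsf4 and Ikzf2, 2 genes high in regulatory T cells, had 671, 617 and 551 CPM, and the one led by Trdc and Cd163l1, genes of gamma-delta T cells, 618, 680 and 768 CPM. The sub-cluster led by Ccl3 and Rgs16 had 153, 176 and 215 CPM, and the Dapl1/Gzmm cluster 140, 148 and 169 CPM. The latter was 24.1%, 29.0% and 33.7% of the library level. In each library this share was above the highest of Ccl2, Ccl7, Ccl12, Ccl6 and Ccl9 in the lymphocyte classes (20.6%, 24.4% and 23.0%). Ccr2 was lower with age in NK-like cells (log2 ratio -0.12 and -0.27) and in T-like cells (-0.11 and -0.28), and higher in the Dapl1/Gzmm cluster (0.08 and 0.27), all within 1.5-fold.

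Cx3cr1 in T-like cells was 58.3%, 54.4% and 48.2% of the library level, a higher share than that of the chemokines. In NK-like cells it was 44.8, 50.9 and 41.3 CPM, and the T-like sub-cluster led by Ifitm1 and Gzma had 91.2, 123 and 93.8 CPM. The part of overlapping gene models in these counts was not tested.

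Dendritic classes had little of the CCR2 ligands. Mature dendritic cell-like cells had the lowest Ccr2 of the classes with over 100 cells per library, at 98.1, 104 and 103 CPM, while cDC1-like cells had 246, 205 and 183 and cDC2-like cells 272, 214 and 230. Ccl6 in cDC2-like cells was 154, 155 and 145 CPM, above the T-like 33.3, 33.0 and 35.5. An unnamed dendritic sub-cluster led by Cd209a and Ccl9 (173, 97 and 83 cells) had 614, 734 and 704 CPM of Ccr2, 415, 537 and 355 of Ccl6 and 469, 490 and 415 of Ccl9. Its high Ccl9 repeats its label, since Ccl9 was one of the genes leading it, although Ccl9 was left out of the clustering. Monocyte genes were also among the genes leading this sub-cluster.

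Likeness was measured as Pearson's r of log2(CPM + 10) over 62 points, each a class or sub-class with at least 50 cells in 1 library. They came from 24 classes, not all of them with 50 cells in every library, and share libraries, depth and cells, so it is a description. Ccl2 was most like Msr1 (r = 0.93), a scavenger receptor gene of macrophages, followed by Klra2. Ccl7 was most like Camk1 (0.93) and Ccl8 most like Hebp1 (0.90), followed by Pf4. Ccl12 was most like C3ar1 (0.98), the receptor gene for complement fragment C3a. Ccl9 was most like Lyz2 (0.97), the lysozyme gene of myeloid cells, and Itgam, an integrin gene of myeloid cells, was among the 3 genes most like Ccl6 (0.96) and Ccl9 (0.95). Cx3cr1 was most like Clec4a3 (0.91). Ccr2 had no close match, with Usb1 highest at 0.72, and for Ccl24, under the level minimum of 50 CPM, Gdf15 was highest at 0.88.

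Other CC chemokines and receptors were taken from a list of 29 genes, of which 7 were above 10 CPM in monocyte/macrophage-like cells. At 12 months 1 of these 7 was at least 1.5-fold higher, Ccr7, a receptor gene of mature dendritic cells and naive T cells, at 14.4, 25.2 and 17.4 CPM, and none was lower, against 2.56% and 1.11% of all genes. At 20 months none was past 1.5-fold in either direction (1.92% and 1.69% of all genes were). In a list of 15 cytokine, receptor and transcription factor genes upstream of these chemokines, 13 were above 10 CPM and none was past 1.5-fold at either age. The median log2 ratios were 0.23 and 0.11 for the first list and -0.01 and -0.07 for the second, against 0.01 and -0.00 over all genes tested. In classical monocyte-like cells 1 of 7 genes of the first list was past 1.5-fold higher at 12 months (2.87% of all genes). At 20 months 1 of these 7 and 1 of 15 of the second list were lower there (1.00%). In C1q macrophage-like cells 2 of 7 of the first list were higher at 12 months (4.03%), and none of 13 of the second was past 1.5-fold.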

How the data were processed

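The authors deposited, for each library, unnormalised whole-number counts, genes by cells. The 3′ PIP-seq libraries, per the labels' protocols, were sequenced on an Element AVITI. STAR 2.7.10a and GRCm38 are named in the submitters' processing notes; the annotation, cell calling, strand setting and whether molecules or reads were counted are not given in the sources used here. The genes described and all gene lists were chosen with earlier results of these data known.

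Cells were kept from 500 counts upward and up to 15% mitochondrial counts, and the 6% with the highest Scrublet score were removed per library (863, 879 and 881 cells). The 3 libraries were clustered together without batch correction (scanpy 1.11.5, Leiden, resolution 1.0 and 0.5 for sub-clusters, 2000 variable genes, 30 components, 15 neighbours), leaving out the genes described and both pathway lists. How marker scores name a cluster (a mean of at least 0.4, at least 3 markers detected, no more markers of another class among the 10 leading genes) was set after clusters were seen. Counts were summed per class and library and scaled to CPM. Genes with a mean of at least 10 CPM in the class were compared, and "past" a fold means a ratio of at least 1.5 between ages or 2 between classes. Intervals of levels are exact Poisson and those of ratios exact conditional, at 95%. The calculation was tested on simulated data. The text names the genes described, genes from the 3 most like each, and listed genes past 1.5-fold; some are not reported here. Alternatives covered doublets, depth, resolution, separate clustering, the 10 highest cells, edgeR 4.0.16 TMM factors, subtraction of the T-like level, means over cells, the level minimum and thinning.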

Additional observations from a re-analysis of the deposited data

Results flagged for a closer look

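Ccl7 moved in opposite directions between 4 and 12 months in 2 sub-clusters. Its log2 ratio was 2.36 (1.54 to 3.25) in the Mmp12/Cd36 cells, from 17 counts in 121 cells to 50 counts in 54 cells, and -0.94 (-1.06 to -0.81) in the AA467197/Tgm2 cells. In the small Mmp12/Cd36 sub-cluster 14.6% of all genes were past 1.5-fold higher and 12.2% lower at 12 months, against 3.94% and 1.64% in the AA467197/Tgm2 cells. When the 4-month library was clustered alone, a cluster led by Ace and Ear1 (137 cells) stood apart from one led by Mmp12 and Lpl (24 cells), while sub-clustering of its monocyte/macrophage-like cells gave 1 sub-cluster of 133 cells led by Mmp12 and Cd36. The difference between the 2 sub-clusters in Ccl7 was not tested, with 1 library per age.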

How the results depend on the processing

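Over 18 ratios in monocyte/macrophage-like cells and their alternatives, 162 values were computed: 89 lay within the counting interval of the reported value, 72 lay outside it and 1, reported as past 1.5-fold, changed sign. That 1 was Ccl8 at 20 months, at -0.12 with sub-cluster shares as at 4 months, where the count of genes past 1.5-fold higher was 0. The count past 1.5-fold lower at 20 months was 0 at resolution 0.5, and 2 with no minimum level, which added Ccl24. In the resolution 0.5 setting a cluster of 3775 cells led by F13a1 and Hp stayed unnamed and out of the class. With no minimum, 22.2% and 18% of all genes were past 1.5-fold higher and lower at 20 months, and 22.9% and 17.9% at 12 months. The count of genes 2-fold lower in C1q macrophage-like cells was 1 with cells of at least 5000 counts and 1 at resolution 0.5. The cause of these changes was not tested. The 20-month ratio ranged from -0.81 to -0.42 for Ccl2 and from 0.72 to 1.31 for Ccl8 over the other 8 alternatives. Among ratios within 1.5-fold, the sign turned under 1 or more of these 8 for Ccl6, Ccl9 and Ccr2 at both ages, Ccl12 at 12 months and Ccl7 at 20 months. At resolution 0.5 Ccl6 was 0.13 and 0.10, and Ccl9 was 0.33 at 12 months. No paired analysis was possible because each age has 1 library. Ccl24 and Ccl8 outside macrophages are limited by counts.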

Other observations

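Small clusters outside the main classes also carried Ccl2 and Ccl7. The mast cell- or basophil-like cells (9, 18 and 17 cells) had 726, 1358 and 1263 CPM of Ccl2 and 491, 2020 and 1330 CPM of Ccl7, with 0 counts of Ccl8. The fibroblast-like cells (52, 31 and 46 cells) had 455, 903 and 395 CPM of Ccl2 and 186, 103 and 30.98 CPM of Ccl7. A T-like sub-cluster led by Dpf3 and Sim1 (3, 21 and 59 cells) had 177 and 156 CPM of Ccl2 at 12 and 20 months, above other T-like cells, with median depths of 18733 and 17700 counts. The part of doublets in that sub-cluster was not tested.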
